A study of Mus musculus with 6 samples.

Results

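The interferon response genes are a set of 38 genes that cells switch on after interferon reaches them, and their RNA levels were followed here in mouse regulatory T cells with and without Mbd2. The genes were listed by name, and each was represented by the probe set (the group of array probes for 1 transcript) that carries its symbol alone and has the highest mean over the arrays. Of the 38 genes, 35 had such a probe set and 34 passed the filter on dim probe sets, out of 12393 genes with a probe set and 8190 past the filter in the whole series. Oasl2 lay under the filter, at 4.16, 4.16 and 5.24 in the wild-type arrays and 4.18, 5.42 and 4.18 in the knockout arrays. Isg15, Ifi44 and Xaf1 had no probe set of their own and were not analysed here. All arrays held total RNA of CD4+CD25+ regulatory T cells (Treg), the T cells that restrain immune responses, from mice of the Balb/c background. The cells were separated magnetically, and activated conventional T cells can carry CD25 too. There were 2 groups of 3 independent samples each, wild-type mice (arrays WT 1 to WT 3) and MBD2-/- mice, which lack the methyl-CpG binding protein Mbd2 (arrays KO 1 to KO 3). The labels name no treatment of either group, and their age is not stated.

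Type I interferon signals through the receptor chains Ifnar1 and Ifnar2 to a complex that holds Stat2 and Irf9 and binds the interferon-stimulated response element (ISRE) in promoters. Interferon gamma signals through Ifngr1 and Ifngr2, acts on promoters at the gamma-activated site (GAS) and raises Irf1, the guanylate-binding proteins and the immunity-related GTPases. The induced proteins sense viral nucleic acid, block translation, trap virus at membranes or present antigen. T cells express many of these genes at a basal level, and Treg in inflamed tissue respond to both kinds of interferon.

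Promoters are shown for 4 genes whose promoter window holds the core of the ISRE, namely those of them with the largest differences between genotypes once array WT 3 is left out. The windows are from RefSeq (GRCm38.p6), run from 250 bases before the start site to 30 bases after it, and are written 5′ to 3′ on the strand of the gene, with the letters of the core in capitals. Ifitm3 lies at chr7:141010715-141010994 (minus strand), Ifitm2 at chr7:140955932-140956211 (minus strand), Gbp3 at chr3:142559794-142560073 (plus strand) and Bst2 at chr8:71537443-71537722 (minus strand). The start site used for Ifitm2, 140955961, lies inside the annotated span of the gene, which begins upstream at 140959686, so that its window is not upstream of the whole gene.
Ifitm3: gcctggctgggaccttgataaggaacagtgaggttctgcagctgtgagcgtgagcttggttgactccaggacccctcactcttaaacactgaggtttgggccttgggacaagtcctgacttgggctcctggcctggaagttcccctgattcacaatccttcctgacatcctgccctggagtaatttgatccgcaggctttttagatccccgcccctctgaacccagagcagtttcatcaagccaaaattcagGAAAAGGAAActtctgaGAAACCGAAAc
Ifitm2: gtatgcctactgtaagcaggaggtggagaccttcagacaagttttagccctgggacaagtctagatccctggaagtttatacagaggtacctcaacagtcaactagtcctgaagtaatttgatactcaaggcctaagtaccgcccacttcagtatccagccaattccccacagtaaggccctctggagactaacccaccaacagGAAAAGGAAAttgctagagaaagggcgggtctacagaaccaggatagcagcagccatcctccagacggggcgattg
Gbp3: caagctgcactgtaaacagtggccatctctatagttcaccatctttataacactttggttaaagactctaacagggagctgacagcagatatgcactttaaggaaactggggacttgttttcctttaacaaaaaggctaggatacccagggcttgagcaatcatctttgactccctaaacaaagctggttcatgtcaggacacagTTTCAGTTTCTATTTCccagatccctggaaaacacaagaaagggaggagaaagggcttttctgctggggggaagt
Bst2: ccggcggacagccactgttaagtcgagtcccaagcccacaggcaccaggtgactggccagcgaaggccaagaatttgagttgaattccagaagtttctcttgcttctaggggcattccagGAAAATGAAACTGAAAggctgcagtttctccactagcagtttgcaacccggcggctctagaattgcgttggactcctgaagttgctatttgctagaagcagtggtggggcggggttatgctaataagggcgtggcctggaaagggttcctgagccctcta
The core searched was GAAANNGAAA, where N is any base, on either strand, so that Gbp3 shows its reverse form, TTTCNNTTTC. With the start site counted as 1, the 2 cores of Ifitm3 begin at 3 and 20, and the core of Ifitm2 begins at -46. In Gbp3 and Bst2 the 2 matches overlap by 4 bases and make 1 run, from -45 in Gbp3 and from -130 in Bst2. Of the 38 genes, 30 had a promoter in the table, and Dhx58, Zbp1, Oas2, Mx1, Mx2, Iigp1, Usp18 and Parp14 had none. The ISRE core was in a full window (to 50 bases after the start) of 14 of the 30 genes (46.7%), against 3.99% of all 27025 genes in the table. The GAS core, TTCNNNGAA, was in 9 of the 30 (30%), Ifitm3 and Bst2 among them, against 9.55% of all genes, and the 2 cores can share bases. Ifitm1, which lies between Ifitm2 and Ifitm3 on chromosome 7, had no ISRE core letters in its window.

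Array WT 3 was unlike the rest. It correlated with them at a Pearson r of 0.750 to 0.767 over all probe sets, and the other arrays with each other at 0.956 to 0.997, KO 2 at the low end. Each result is therefore given with all 6 arrays and without WT 3 (the 5-array fit), and where it matters also without both WT 3 and KO 2 (the 4-array fit). The brighter of 2 Mbd2 probe sets was at 8.80, 8.66 and 6.93 in the wild-type arrays and 5.93, 5.71 and 6.14 in the knockout arrays, which checks the labels only if the deletion covers these probes. Markers of other cells differed between the genotypes. The summed level of 8 neutrophil markers was 9.0 to 10.51 (log2) in wild type and 14.53 to 15.06 in knockout, and that of 7 monocyte and macrophage markers was 8.03 to 8.66 and 11.29 to 12.41. The summed level of 6 Treg markers, Foxp3, Cd4 and Cd3e among them, was 12.03, 12.08 and 10.86 in WT 1, WT 2 and WT 3 and 11.47, 10.85 and 11.54 in KO 1, KO 2 and KO 3. Without WT 3 all knockout arrays were below wild type, with 0 of 6 markers higher and a median difference of -0.70, while 1 of 6 was higher with 6 arrays. In RNA from many cells, fewer cells of a type and less RNA per cell cannot be told apart.

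The comparison of knockout with wild-type cells asked whether the loss of Mbd2 went with another level of interferon response genes. As a set these genes did not move 1 way. With 6 arrays 27 of 34 were higher in knockout and 7 lower, a share of 79.4% higher against 64.3% of all genes. Without WT 3, 16 were higher and 18 lower, a share of 47.1% against 40.1%. The median log2 difference (knockout minus wild type) was 0.23 with 6 arrays, beside 0.16 over all genes, and -0.05 with 5 arrays, beside -0.06 over all genes. The sign of 19 of the 34 genes turned between the fits, as it did for 46.3% of all genes. The largest differences were those of 3 members of 1 family, the antiviral membrane proteins Ifitm1, Ifitm2 and Ifitm3, all higher in knockout in both fits.

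None of the 34 genes passed an adjusted p of 0.05 in limma with 6 arrays, where 0.122% of all genes did, or with 5 arrays, where 1.58% did. The smallest adjusted p was that of Ifitm3 in both, 0.245 and 0.0529. At an unadjusted limma p under 0.05 there were 4 genes with 6 arrays (11.8%, beside 4.48% of all genes), all 4 higher and all of them membrane proteins. With 5 arrays there were 12 (35.3%, beside 22.7% of all genes), 7 higher and 5 lower. The 6-array values of the 2 genotypes did not overlap for Oasl1, Trim25, Bst2, Ifitm1, Ifitm2 and Ifitm3, which is 6 of 34 genes higher in knockout (10.8% of all genes) and 0 lower (5.43% of all genes). With 5 arrays Oas2 joined these 6, making 7 higher (16.8% of all genes), and 8 were lower without overlap (32.8% of all genes), namely Irf9, Ifih1, Ifit2, Adar, Gbp3, Iigp1, Tap1 and Ifi35.

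**Figure D1:**
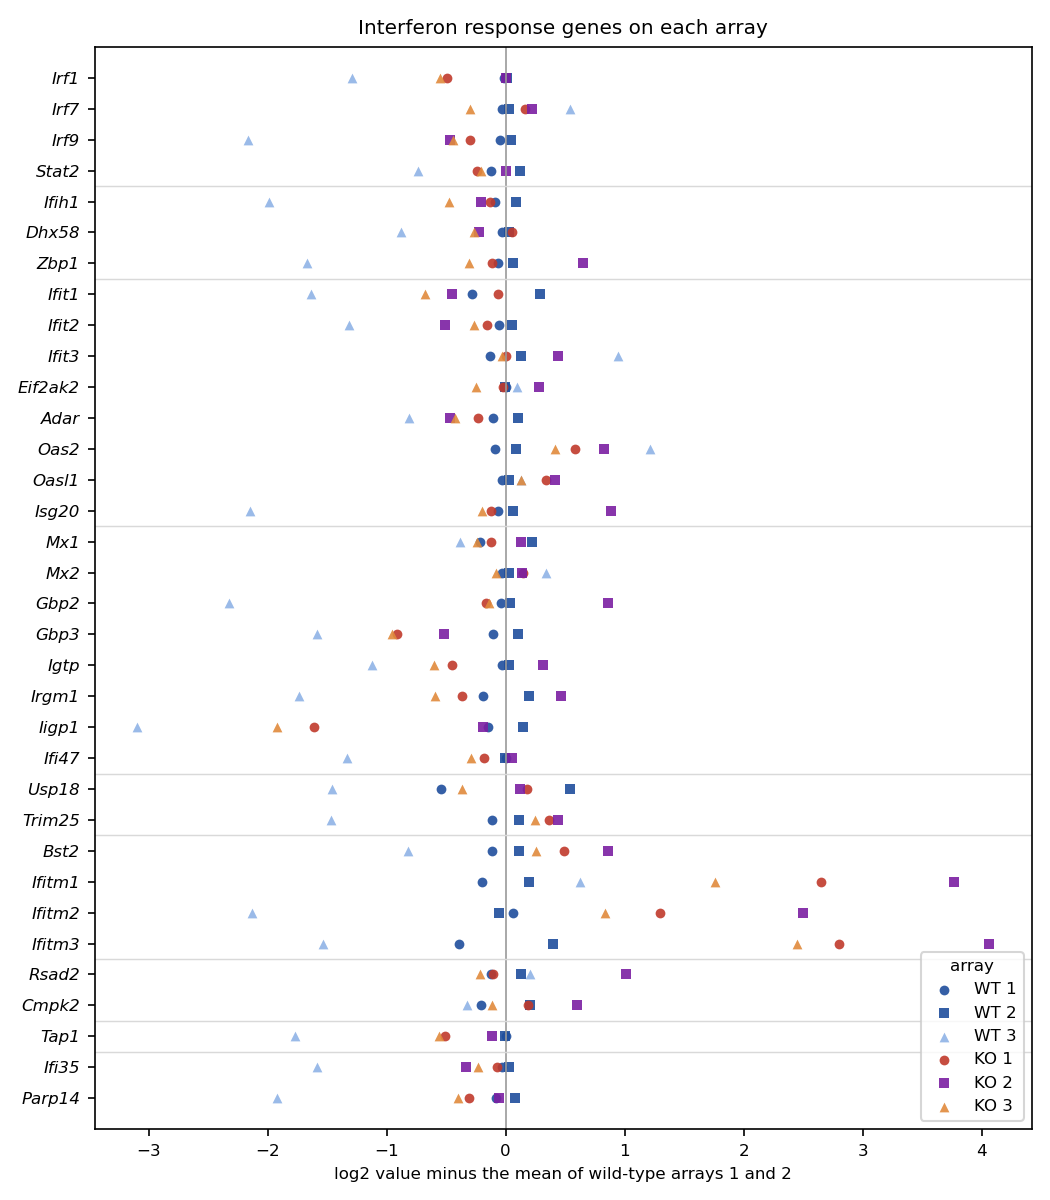
Log2 value of each of the 34 interferon response genes on each array, minus the mean of wild-type arrays 1 and 2 for that gene, with genes grouped by role. WT 3 is the lowest array for 26 of the 34 genes, and the knockout arrays lie far to the right only for Ifitm1, Ifitm2 and Ifitm3. WT 3 is above the mean of WT 1 and WT 2 for 8 of the 34 (23.5%, beside 27.9% of all genes).

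Among the 4 signalling and transcription factors, none passed the threshold with 6 or 5 arrays, and the median size of the 5-array difference was 0.25, beside 0.17 over all genes. Irf1 and Irf9 passed only in the 4-array fit, at -0.52 and -0.37. In what follows, values are log2 levels in the order of replicates 1, 2 and 3. Irf9, the DNA-binding part of the type I interferon complex, was at 8.24, 8.34 and 6.13 in wild type and 7.99, 7.82 and 7.85 in knockout. WT 1 and WT 2 were above all knockout arrays and WT 3 below them. The difference was 0.32 (SE 0.60, adjusted p = 0.861) with 6 arrays and -0.40 (SE 0.10, adjusted p = 0.111) with 5. Stat2, its partner, was at 6.44, 6.69 and 5.83 in wild type and 6.32, 6.57 and 6.36 in knockout, so that the groups overlapped with and without WT 3. Irf1, the factor raised by interferon gamma, was at 9.85, 9.88 and 8.58 in wild type and 9.38, 9.87 and 9.31 in knockout. KO 2 lay at the level of WT 1 and WT 2, and the other knockout arrays lay below it, with a 5-array difference of -0.35 (SE 0.18, adjusted p = 0.321). Irf7, which amplifies the type I response, was at 7.88, 7.94 and 8.46 in wild type and 8.07, 8.13 and 7.61 in knockout. Here WT 3 was the highest array and KO 3 the lowest, and the 5-array difference was 0.03 (SE 0.17).

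The 3 sensors of viral nucleic acid were higher in knockout with 6 arrays, by 0.15 to 0.63, and 1 of the 3 was with 5 arrays. Zbp1, which recognises Z-form nucleic acid and can start cell death, was at 7.71, 7.84 and 6.10 in wild type and 7.66, 8.42 and 7.46 in knockout. KO 2 was the highest array, and KO 1 and KO 3 lay under WT 1 and WT 2. Its difference was 0.63 (SE 0.53, adjusted p = 0.829) with 6 arrays and 0.07 (SE 0.28, adjusted p = 0.9) with 5. The RNA helicase Ifih1 (MDA5) was at -0.27 (SE 0.14, adjusted p = 0.301) with 5 arrays and its relative Dhx58 (LGP2) at -0.15 (SE 0.13).

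Of the 8 tested genes that bind RNA or control translation, 5 were higher in knockout with 6 arrays and 5 with 5 arrays. Ifit1, which binds foreign RNA caps, was at 6.62, 7.19 and 5.27 in wild type and 6.83, 6.45 and 6.23 in knockout. The groups overlapped, and the 5-array difference of -0.40 (SE 0.24, adjusted p = 0.377) was below the wild-type SD of 0.41 (n = 2). Its neighbours Ifit2 and Ifit3 lay at -0.31 (SE 0.13) and 0.14 (SE 0.18) with 5 arrays. Oas2, which makes the messenger that activates RNase L, was at 6.02, 6.20 and 7.32 in wild type and 6.70, 6.94 and 6.52 in knockout. All 3 knockout arrays were above WT 1 and WT 2, while WT 3 was the highest array of all. The difference was 0.20 (SE 0.38, adjusted p = 0.86) with 6 arrays and 0.61 (SE 0.15, adjusted p = 0.103) with 5. Isg20, an RNA exonuclease, was at 7.92, 8.04 and 5.84 in wild type and 7.86, 8.87 and 7.78 in knockout. Only KO 2 was above WT 1 and WT 2, and the difference was 0.90 (SE 0.66, adjusted p = 0.829) with 6 arrays and 0.18 (SE 0.33) with 5. The kinase gene Eif2ak2 (PKR), which stops translation, was at -0.03 and 0.00 in the fits, the RNA-editing enzyme gene Adar at -0.10 and -0.37, and Oasl1 at 0.25 and 0.30.

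The GTPases that interferon gamma induces held the 2 lowest 5-array differences of the set, those of Iigp1 and Gbp3. Iigp1, an immunity-related GTPase that attacks the vacuoles of parasites, was at 9.12, 9.41 and 6.17 in wild type and 7.66, 9.08 and 7.35 in knockout. KO 1 and KO 3 lay more than 1 log2 unit below WT 1 and WT 2, KO 2 lay just under WT 1, and WT 3 was the lowest array. The difference was -0.21 (SE 0.94, adjusted p = 0.945) with 6 arrays and -1.24 (SE 0.50, adjusted p = 0.229) with 5, a level 2.36-fold lower, and a second probe set of the gene gave -0.44 and -1.19. Gbp3, a guanylate-binding protein, was at 9.22, 9.43 and 7.74 in wild type and 8.41, 8.81 and 8.37 in knockout. All knockout arrays were below WT 1 and WT 2, with a 5-array difference of -0.80 (SE 0.16, adjusted p = 0.0767), and WT 3 was below them again, so that the 6-array difference was -0.27 (SE 0.47, adjusted p = 0.853).

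Gbp2, of the same family, was at 8.47, 8.55 and 6.19 in wild type and 8.34, 9.37 and 8.37 in knockout. KO 1 and KO 3 were slightly under WT 1 and WT 2 and KO 2 was above them. The difference was 0.96 (SE 0.69, adjusted p = 0.829) with 6 arrays and 0.18 (SE 0.32, adjusted p = 0.764) with 5, and a second probe set gave -0.02 with 5 arrays. Irgm1, which regulates the other immunity-related GTPases, was at 7.85, 8.24 and 6.32 in wild type and 7.68, 8.51 and 7.46 in knockout. Again KO 2 was the highest array, and the difference was 0.41 (SE 0.56, adjusted p = 0.829) with 6 arrays and -0.16 (SE 0.32, adjusted p = 0.791) with 5. Igtp and Ifi47, further immunity-related GTPases, were at -0.24 (SE 0.28) and -0.14 (SE 0.13) with 5 arrays. Mx1 and Mx2, the antiviral dynamin-like GTPases that type I interferon induces, were at -0.08 and 0.07 with 5 arrays. All 8 GTPases were higher in KO 2 than in the mean of KO 1 and KO 3. Ifng, which encodes interferon gamma and is not among the 38 genes, was at 7.47, 7.59 and 5.63 in wild type and 6.18, 8.22 and 5.84 in knockout. KO 2 was the highest array and 2.21 above the mean of KO 1 and KO 3, and the 5-array difference was -0.78 (SE 0.69, adjusted p = 0.536).

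**Figure D2:**
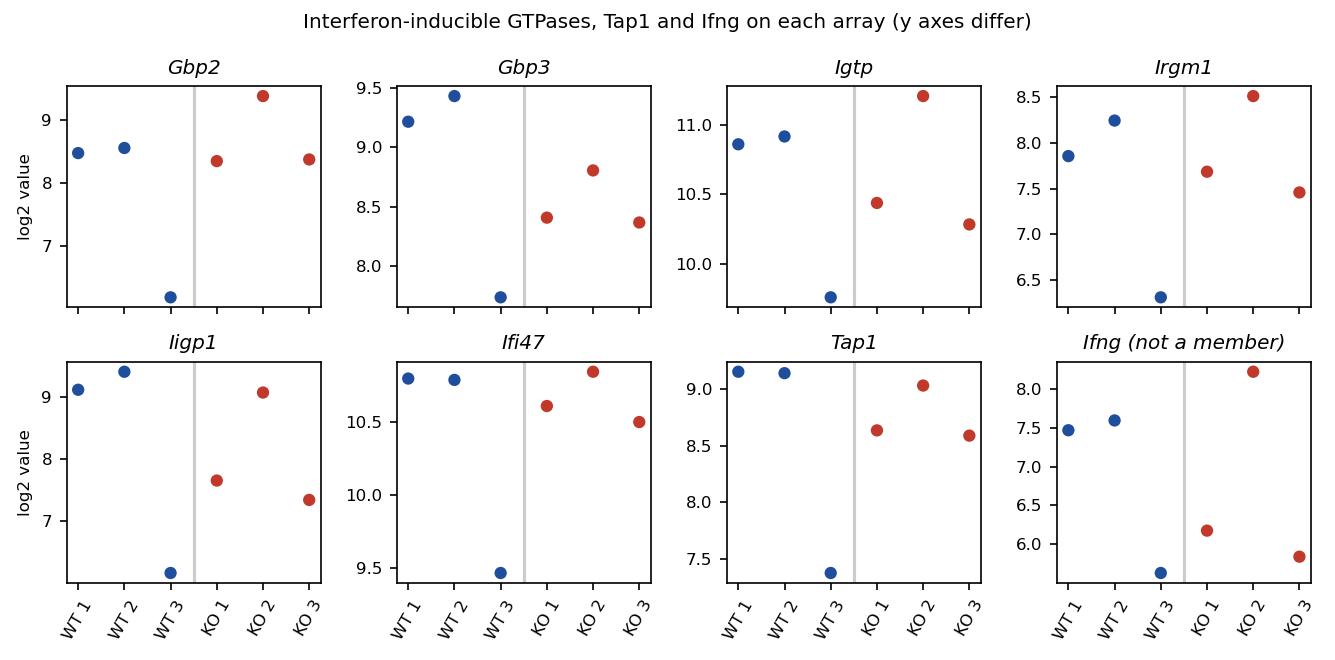
Log2 value on each array for 6 interferon-inducible GTPases, for Tap1 and for Ifng, with wild-type arrays in blue, knockout arrays in red and a separate y axis for each gene. KO 2 is the highest knockout array in all 8 panels and WT 3 is the lowest array in all 8.

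Usp18 removes Isg15, a ubiquitin-like tag, from proteins and damps type I signalling. It was at 6.99, 8.08 and 6.08 in wild type and 7.71, 7.66 and 7.16 in knockout. All knockout values lay between those of WT 1 and WT 2, whose SD of 0.77 (n = 2) was above the 5-array difference of -0.02 (SE 0.34, adjusted p = 0.973). Trim25, a ubiquitin ligase that activates RNA sensing, was at 8.44, 8.67 and 7.09 in wild type and 8.92, 8.99 and 8.80 in knockout. Every knockout array was above every wild-type array, with a difference of 0.84 (SE 0.43, adjusted p = 0.829) with 6 arrays and 0.35 (SE 0.12, adjusted p = 0.173) with 5.

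The 4 membrane restriction factors were all higher in every knockout array than in every wild-type array. Ifitm3, which blocks the fusion of viruses in endosomes, was at 6.28, 7.07 and 5.13 in wild type and 9.47, 10.74 and 9.12 in knockout. The lowest knockout value was over 2 log2 units above the highest wild-type value. Its mean was 6.67 ± 0.56 (SD, n = 2) in wild type without WT 3 and 9.78 ± 0.85 (SD, n = 3) in knockout, a 5-array difference of 3.10 (SE 0.50, adjusted p = 0.0529) or 8.59-fold. With 6 arrays the wild-type mean was 6.16 ± 0.97 (SD, n = 3) and the difference 3.62 (SE 0.62, adjusted p = 0.245). Ifitm1, of the same family and found more at the cell surface, was at 5.61, 6.01 and 6.44 in wild type and 8.46, 9.58 and 7.57 in knockout. The groups were clear of each other, and the difference was 2.52 (SE 0.53, adjusted p = 0.433) with 6 arrays and 2.73 (SE 0.55, adjusted p = 0.0745) with 5, or 6.62-fold. Ifitm2, the third of these neighbouring genes, was at 6.96, 6.85 and 4.78 in wild type and 8.20, 9.40 and 7.74 in knockout. WT 3 was far below the other arrays, and the difference was 2.25 (SE 0.71, adjusted p = 0.829) with 6 arrays and 1.54 (SE 0.46, adjusted p = 0.148) with 5, or 2.91-fold. Among the knockout arrays KO 2 was highest for all 3 genes, by 1.43 to 1.57 over the mean of KO 1 and KO 3.

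Bst2 (tetherin), which holds budding virus on the cell surface, was at 7.61, 7.84 and 6.90 in wild type and 8.21, 8.58 and 7.98 in knockout. Here too every knockout array was above every wild-type array, KO 3 by a small margin, with a difference of 0.81 (SE 0.32, adjusted p = 0.829) with 6 arrays and 0.53 (SE 0.19, adjusted p = 0.194) with 5. The marker levels of other cells were higher in the same arrays. Neutrophil markers stood at 9.05, 10.51 and 9.0 in wild type and 14.54, 15.06 and 14.53 in knockout as log2 of the summed level, with 8 of 8 genes higher. Monocyte and macrophage markers were at 8.03, 8.55 and 8.66 and at 11.62, 12.41 and 11.29, with 7 of 7 genes higher. B cell markers were at 8.74, 9.66 and 8.38 and at 10.44, 11.09 and 10.30, with 5 of 6 genes higher with 6 arrays and 6 of 6 with 5, and plasma cell markers, with 4 of 4 genes higher, at 12.31, 12.87 and 10.53 and at 13.36, 14.36 and 13.37. By summed level KO 2 was the highest array in each of these 4 lists, as it was for the 4 membrane factors. Of the neutrophil markers, Mpo and Elane were lowest on KO 2 among the knockout arrays. Plasmacytoid dendritic cell markers, of the cells that make most type I interferon, were at 9.31 to 9.39 in wild type and 9.51 to 9.72 in knockout, with 2 of 6 genes higher with 6 arrays and 4 of 6 with 5. CD8 T and NK cell markers were at 8.30 to 9.27 and 9.50 to 10.32, with 4 of 5 genes higher with 6 arrays and 5 of 5 with 5, and 3 erythroid markers at 6.29 to 8.40 and 6.37 to 6.55. The part of these cells in the levels of the membrane factors was not tested.

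**Figure D3:**
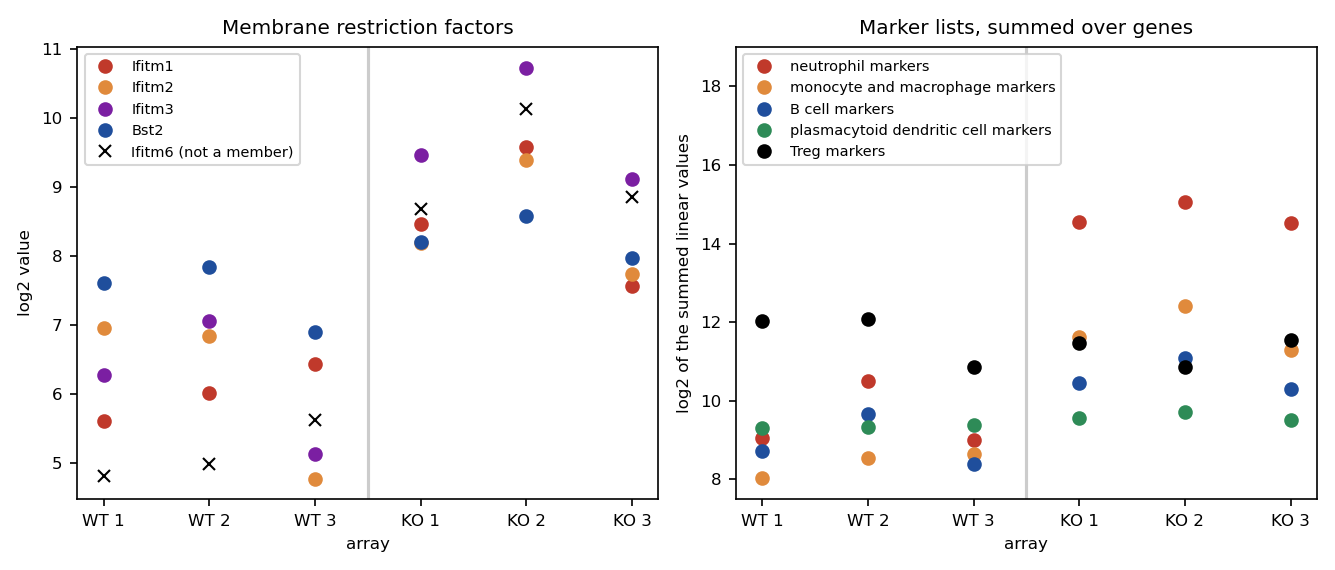
Left, log2 value of the 4 membrane restriction factors and of Ifitm6 on each array. Right, log2 of the summed level of 5 marker lists on each array. The summed neutrophil and monocyte markers and the Ifitm genes are higher on all 3 knockout arrays than on all wild-type arrays, and both are highest on KO 2.

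Rsad2 (viperin), which makes a chain-terminating nucleotide, and its neighbour Cmpk2, a mitochondrial nucleotide kinase, stood at 0.23 (SE 0.38) and 0.23 (SE 0.24) with 5 arrays. The values of both overlapped between genotypes, and KO 2 was the highest array, at 6.98 for Rsad2 against 5.75 to 6.17 on the others. Tap1, the peptide transporter of antigen presentation, was at 9.15, 9.14 and 7.38 in wild type and 8.63, 9.03 and 8.59 in knockout. All knockout arrays were below WT 1 and WT 2 and above WT 3, and the difference was 0.19 (SE 0.51, adjusted p = 0.894) with 6 arrays and -0.39 (SE 0.15, adjusted p = 0.218) with 5. Parp14, an ADP-ribosyltransferase, and Ifi35 were at -0.25 (SE 0.13) and -0.22 (SE 0.11) with 5 arrays. Of the 34 genes, 27 had a 5-array difference under 0.5 in size, and without the 3 Ifitm genes the differences ran from -1.24 for Iigp1 to 0.61 for Oas2. Of 7 genes with a further tested probe set, the probe sets differed in sign for 3 with 6 arrays and 2 with 5 arrays.

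Without both WT 3 and KO 2, which left 2 arrays in each group, 11 of the 34 genes passed the threshold. Of these, 4 rose, beside 9.07% of all genes, and 7 fell, beside 11.0% of all genes. The genes that rose were Ifitm3 at 2.62 (SE 0.25, limma adjusted p = 0.00155), Ifitm1 at 2.20 (adjusted p = 0.00439), Ifitm2 at 1.07 (adjusted p = 0.00608) and Oas2 at 0.50 (adjusted p = 0.019). Those that fell were led by Iigp1 at -1.76 (SE 0.14, adjusted p = 0.000826) and Gbp3 at -0.93 (adjusted p = 0.0019), and included Tap1 and Igtp at -0.53 each, Irf1 at -0.52, Irf9 at -0.37 and Parp14 at -0.35. The median over the 34 genes was -0.16, beside -0.03 over all genes, and 9 were positive and 25 negative. With KO 2 kept, the 6-array and 5-array fits made none of these 11 calls. KO 2 was the highest knockout array for 25 of the 34 genes, so that leaving it out by itself lowered their knockout means. The spread could narrow too, as for Iigp1, whose SE was 0.50 with 5 arrays and 0.14 with 4.

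**Figure D4:**
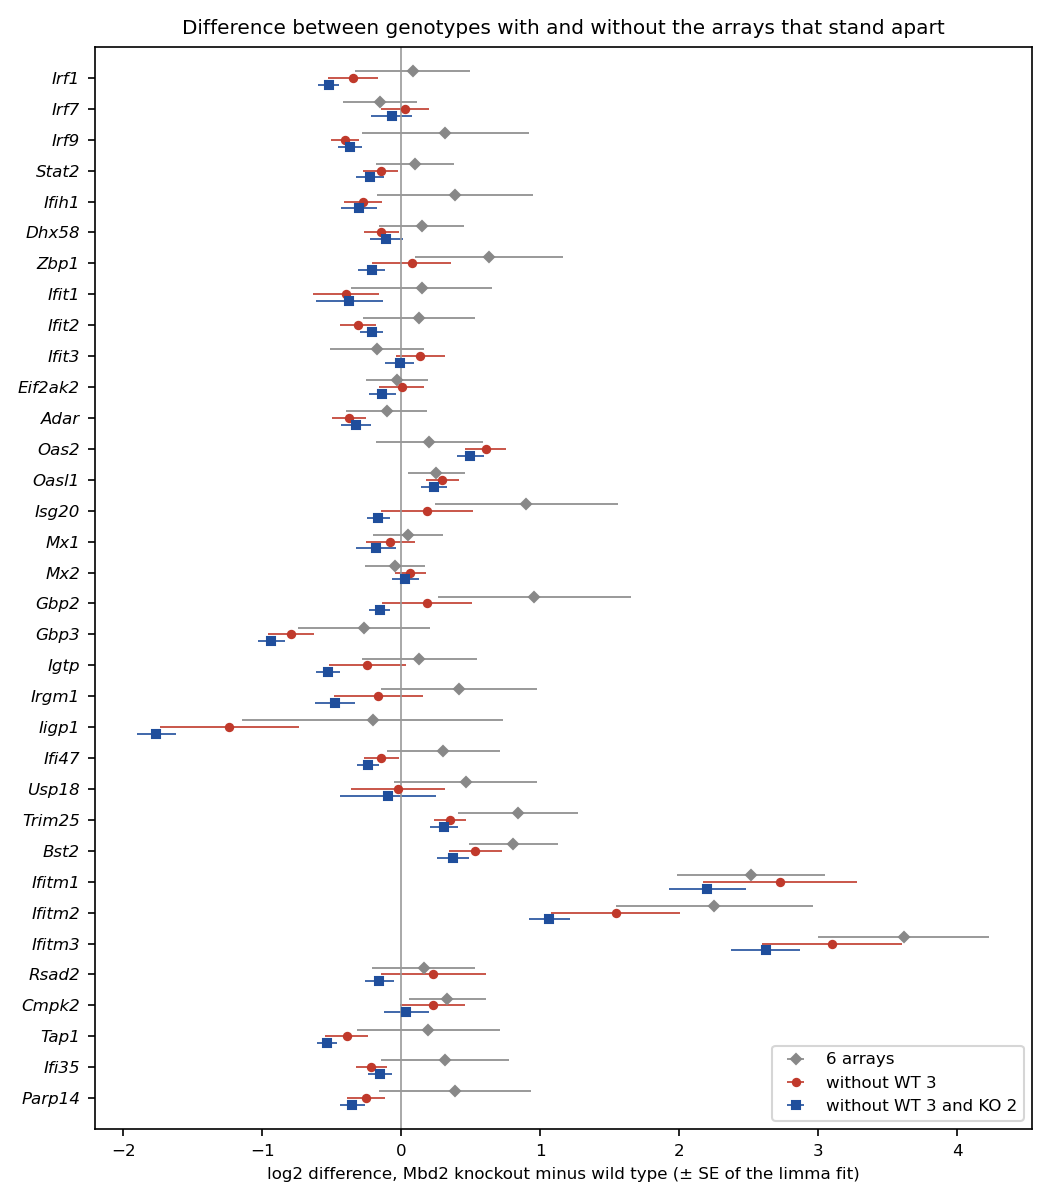
Log2 difference between genotypes of each interferon response gene, knockout minus wild type, with the SE of the limma fit as bars, for 6 arrays, for 5 arrays without WT 3 and for 4 arrays without WT 3 and KO 2. The 3 Ifitm genes lie to the right of 0 in all 3 fits, while Irf9, Irf1, Tap1 and others change side between 6 and 5 arrays.

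Within each genotype the interferon response genes tended to differ between arrays in the same direction. KO 2 was above the mean of KO 1 and KO 3 for 28 of the 34 genes, beside 38.1% of all genes, with a median of 0.37 beside -0.10 over all genes. The largest such gaps were those of Iigp1 (1.57), Ifitm1 (1.57), Ifitm3 (1.44) and Ifitm2 (1.43), followed by Rsad2 (1.17), Isg20 (1.05) and Gbp2 (1.02). The exceptions were Irf9, Dhx58, Ifit1, Ifit2, Adar and Ifi35, at -0.08 to -0.30. KO 1 was above KO 3 for 32 genes, all but Gbp2 and Stat2, beside 50.2% of all genes, with a median of 0.18. The order KO 2, KO 1, KO 3 held for 23 of the 34 genes and for 1476 of all 8190 genes. Between the wild-type arrays that did not stand apart, WT 2 was above WT 1 for 30 genes, all but Eif2ak2, Ifi47, Ifitm2 and Tap1, beside 45.4% of all genes, and the widest gaps were those of Usp18 (8.08 and 6.99) and Ifitm3 (7.07 and 6.28). WT 3 was below the mean of WT 1 and WT 2 by a median of 1.32, where the median of all genes was 0.78 below. The narrower spread of values on WT 3 enters these gaps, and its part in them was not tested.

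The spread between arrays of 1 genotype had a higher median for these genes than for all genes. Their median SD over the knockout arrays was 0.26, against 0.15 over all genes, and over WT 1 and WT 2 it was 0.12 against 0.06. With 5 arrays the difference between genotypes was larger in size than the knockout SD for 19 of the 34 genes (55.9%, beside 56.2% of all genes). The array with the higher interferon response genes in each genotype also had a higher summed level of neutrophil markers. It was 15.06 on KO 2 against 14.54 and 14.53 on KO 1 and KO 3, and 10.51 on WT 2 against 9.05 on WT 1. Single neutrophil markers differed from this. Mpo and Elane were lowest on KO 2 of the knockout arrays, and Elane was lower on WT 2 than on WT 1. The summed monocyte and macrophage, B cell, plasma cell, plasmacytoid dendritic cell, and CD8 T and NK cell markers were also highest on KO 2. These sums were also higher on WT 2 than on WT 1. The gap was small for plasmacytoid dendritic cell markers (9.34 against 9.31) and CD8 T and NK cell markers (9.27 against 9.16). Among their tested genes, in that order, WT 1 was above WT 2 for 2 of 5 and 3 of 5. Pacsin1 and Cd8b1, lower on WT 2, were also lowest on KO 2 of the knockout arrays. The summed Treg markers were lowest on KO 2 of the knockout arrays and slightly higher on WT 2 (12.08) than on WT 1 (12.03). The part of these cells in the spread was not tested.

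**Figure D5:**
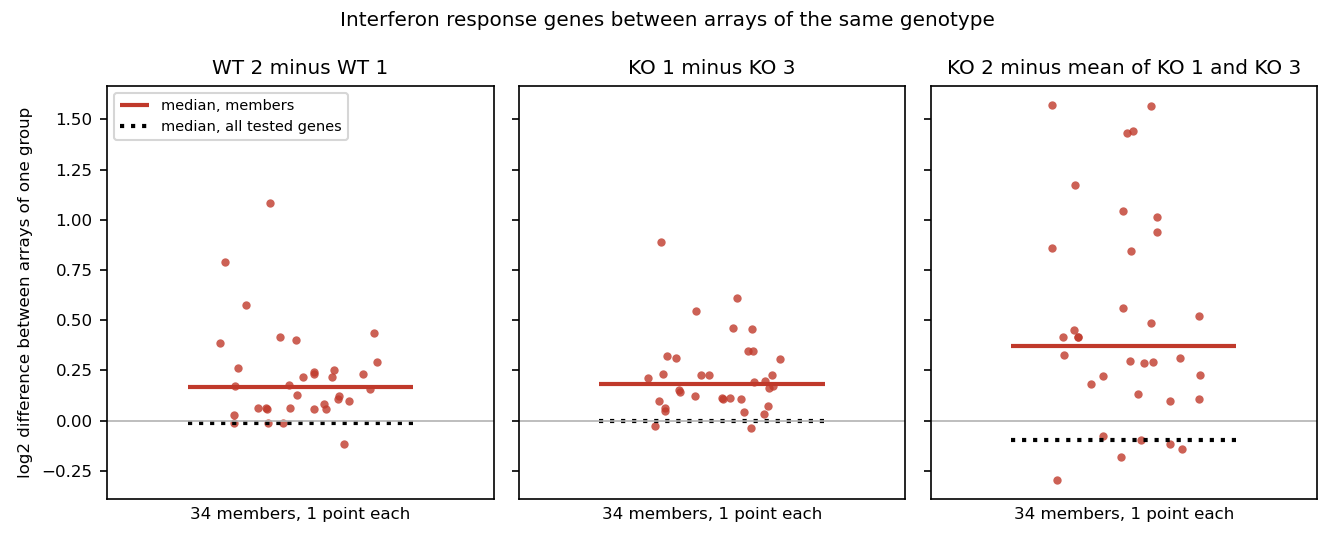
Log2 difference between arrays of the same genotype, 1 point for each of the 34 interferon response genes, with the median of these genes (solid red) and of all tested genes (dotted black). Points lie mostly above 0 in all 3 panels, for 30, 32 and 28 genes from left to right.

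Around these genes in the pathway, 96 further genes were listed, of which 73 had a probe set and 62 were tested. With 6 arrays 0 passed the threshold, and 5 were at an unadjusted limma p under 0.05 (8.06%, beside 4.48% of all genes), all higher. With 5 arrays 2 rose and 1 fell (4.84%, beside 1.58% of all genes). Ifitm6, a further member of the Ifitm family, was at 4.81, 4.99 and 5.62 in wild type and 8.69, 10.14 and 8.85 in knockout, a difference of 4.33 (SE 0.43, adjusted p = 0.0168). Its wild-type mean without WT 3, 4.90, lay under the filter's cutoff of 5.18, so that it passed the filter through the knockout arrays and the size of its difference rests on a wild-type level not shown to be above background. Its knockout arrays were all far above the wild-type arrays and KO 2 was the highest, as for the 3 Ifitm genes above. Ifi30, a lysosomal thiol reductase of antigen-presenting cells, rose by 1.62 (SE 0.23, adjusted p = 0.0396), and Trim21, an antibody receptor in the cytosol, fell by 0.62 on the log2 scale (SE 0.09, adjusted p = 0.0443). With 6 arrays these 3 were at 4.09, 2.13 and -0.01.

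All 9 tested receptor, JAK and STAT genes were lower in knockout with 5 arrays, at -0.10 to -0.58, where 59.9% of all genes were lower. None passed the threshold, and with 6 arrays 5 of the 9 were higher, beside 64.3% of all genes. Ifnar1 was at 7.75, 7.77 and 6.33 in wild type and 7.37, 6.93 and 7.24 in knockout. The knockout arrays were all below WT 1 and WT 2 and above WT 3, with a 5-array difference of -0.58 (SE 0.15, adjusted p = 0.111). Ifnar2, Ifngr1 and Ifngr2 were at -0.15 (SE 0.09), -0.16 (SE 0.12) and -0.40 (SE 0.19) with 5 arrays and at -0.11, 0.20 and -0.02 with 6. Of the 6 measured type I interferon genes 5 lay under the filter, and the last, Ifna1, was at 4.81 to 5.01 on all arrays except WT 3, where it was at 6.52. Without WT 3 and KO 2, 5 of the 62 genes rose, beside 9.07% of all genes, Irf8 at 0.89 (adjusted p = 0.0016) among them. In the same fit 16 fell, beside 11.0% of all genes, with Ifng at -1.52 (adjusted p = 0.0009), Gbp6 at -1.05, Irgm2 at -1.01 and Gbp7 at -0.84.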

How the data were processed

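Each of the 6 single-colour arrays carries 1 log2 value per probe set as deposited. RMA, which corrects background, normalizes by quantiles and summarises probes, was run by the authors per the submitters' processing notes. The RMA software, and whether all arrays were normalized in 1 run, is not stated in these sources, and no detection calls came with the values. The platform's annotation gave the gene symbols, which were updated by gene ID through RefSeq (GRCm38.p6). A probe set was used only if it had 1 symbol, as 20380 of the 22626 probe sets that are not controls did.

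Dim probe sets, meaning the 40% lowest by mean over all 6 arrays (mean log2 below 5.18), were not tested. limma 3.58.1 (R 4.3.3, lmFit with group alone, then eBayes) was run on the other 13575, and p-values were adjusted over all of them by Benjamini-Hochberg, with a threshold of 0.05. Shares of all genes are over 8190 genes, 1 probe set each. The fit was run on simulated data with known changes, with the spread of the 5 arrays without WT 3 for both fits. It therefore does not test the 6-array fit with an array like WT 3. Figures were drawn with matplotlib 3.10.9.

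The genes and the pathway and marker lists were chosen with earlier results of these data known. Values on every array are given for the 10 genes with the largest differences in either fit and for the transcription factors, and of the pathway for genes past the threshold and receptors. Igtp, Rsad2, Ifna1, Ifng, Irf8, Slfn4, Ifi202b, Gbp6, Irgm2 and Gbp7 were singled out after their values were seen. Alternatives were other filters, a trended robust variance model, a second quantile normalization, centring on medians, replicate as a block, leaving out single arrays or WT 3 with KO 2, averaging the probe sets of a gene, and an adjusted p of 0.1. The number of arrays limits the precision.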

Additional observations from a re-analysis of the deposited data

How the results depend on the processing

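Of the interferon response genes, 0 were called with 6 arrays under every alternative run except without WT 3 and KO 2 together, where 11 were called and the median difference was -0.16. With each array left out in turn, the 6-array median lay between -0.050 (without WT 3) and 0.49 (without WT 2), and 0 genes were called. With 5 arrays 1 gene was called with the mean of probe sets (Ifitm3, 3.10, adjusted p = 0.046), 3 with an adjusted p of 0.1, and 0 to 11 with a further array left out, 11 of them without KO 2. Ifitm1, Ifitm2, Ifitm3, Bst2 and Trim25 were higher in knockout under every alternative run. Median centring moved the 6-array median from 0.23 to 0.08.

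The labels do not say whether the replicate numbers pair the samples. A check by correlation cannot decide it, as the deviations were taken from group means that include WT 3. The correlations of deviations between arrays of the same number were 0.15, -0.09 and -0.14, and WT 1 correlated best with KO 3 (0.21). With the replicate block 0 genes were called with 6 arrays and 3 with 5, Ifitm1 at 3.21, Ifitm2 at 1.90 and Ifitm3 at 3.43. In that block fit with 5 arrays, Irgm1 and Usp18 lay at 0.049 and 0.15. There KO 3 had no wild-type array of its number and did not enter the differences. They rest on replicates 1 and 2 alone, taken as pairs that the labels do not state.

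Several 6-array signs turned. Without WT 3 and KO 2, Irf9 was at -0.37, Zbp1 at -0.21, Ifit1 at -0.37, Isg20 at -0.16, Gbp2 at -0.15, Irgm1 at -0.48, Usp18 at -0.10 and Tap1 at -0.53. After quantile normalization again Oas2 was at -0.091 and Tap1 at -0.11. With each array left out, the 6-array differences ran from -0.80 to 0.050 for Gbp3, -0.40 to 0.56 for Ifit1, -1.24 to 0.38 for Iigp1, -0.40 to 0.70 for Irf9, -0.16 to 0.80 for Irgm1, -0.043 to 0.61 for Oas2, -0.39 to 0.49 for Tap1 and -0.023 to 0.98 for Usp18. With 5 arrays they ran from -0.15 to 0.36 for Gbp2, -0.48 to 0.049 for Irgm1, -0.16 to 0.38 for Isg20, -0.56 to 0.52 for Usp18 and -0.21 to 0.27 for Zbp1. Usp18 was at 0.049 after quantile normalization again and at 0.043 after median centring, and Zbp1 at -0.038 with the mean of probe sets. The cause was not tested.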
